A study of Salmo salar with 12 samples.

Results

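The miRNAs described here are those of the miR-375 and miR-7 families, which are known from hormone-producing cells of other vertebrates. Members were the rows of the count table named miR-375 or miR-7, with or without 1 letter and with an arm but no locus number. The choice was by name and not by their counts, though earlier results of these data were known. The rule found 3 of the 361 mature miRNAs in the table, namely ssa-miR-375-3p, ssa-miR-375-5p and ssa-miR-7a-5p. Of these, ssa-miR-375-3p and ssa-miR-7a-5p passed the filter on low counts that left 76 miRNAs to test, and ssa-miR-375-5p had no count in any library.

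A mature miRNA is cut from one arm of a hairpin (5p or 3p) and loaded onto an Argonaute protein, where its seed near the 5′ end pairs with target mRNAs and lowers their output. In mice and other mammals miR-375 is abundant in pancreatic islets, where it restrains insulin release and is needed for a normal mass of hormone cells, and it also occurs in pituitary, gut epithelium and enteroendocrine cells. miR-7 is enriched in islet, pituitary and nerve cells of mammals and dampens hormone secretion in mouse beta cells. These roles are background from mammals and were not measured in the salmon cells.

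Leukocyte preparations came from the distal intestine and the head kidney, a blood-forming organ of fish, of Atlantic salmon of about 550 g that had been starved for 24 h and killed with an overdose of the anaesthetic MS-222. Cells were left to adhere for 2 days at 12°C in L-15 medium, and those that stayed on the dish, adherent intestinal cells (AIC) and adherent head kidney cells (AKC), gave 6 small RNA libraries each. No genotype, agent or infection was named as separating the groups, and organ is the only difference between them that the labels give. The study describes the fish as post smolts, and the labels give no age. Whole adherent pools were sequenced without sorting, so a library could hold any cell that stuck. The number of cells of a type and the amount of RNA per cell cannot be told apart in such a pool. Small RNA libraries do not measure hormone mRNA, and the mRNA libraries that the study made from the same RNA were not used here. AIC libraries held 2253242 to 11804738 counts (median 4842496.0) and AKC libraries 5791813 to 19586480 (median 11374165.5). Values are TMM-normalized counts per 1000000 (CPM), that is, counts scaled to a common library size after trimming extreme miRNAs, unless a share of the library's counts is named. A call in edgeR's quasi-likelihood test needed an adjusted p (Benjamini-Hochberg over 76 miRNAs) below 0.05 together with a log2 fold change of 1 or more in either direction.

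ssa-miR-375-3p, the dominant arm of miR-375, was one of the most abundant miRNAs of the AIC libraries and a minor one of the AKC libraries. It ranked 2 in each of the 6 AIC libraries and between 38 and 49 in the AKC libraries. In AIC its normalized counts in replicates 1 to 6 were 368037, 336438, 236945, 464739, 320269 and 274494 CPM. In AKC replicates 1 to 6 they were 79.8, 125, 172, 58.0, 99.9 and 75.4 CPM. All AIC libraries lay within a factor of 1.96 of each other, the AKC libraries within a factor of 2.96, and the lowest AIC library was 1378 times the highest AKC library. On shares, which need no scaling factor, that gap was 858 times.

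The normalized counts averaged 333487 ± 79252 (SD, n = 6) CPM in AIC and 102 ± 41.4 (SD, n = 6) CPM in AKC. The log2 fold change was 11.68 (standard error 0.42, 95% confidence interval 10.79 to 12.57), which is a 3280-fold higher normalized count in AIC. The adjusted p was 2.29e-12 in edgeR's quasi-likelihood test, the smallest p of the 76 miRNAs, and only ssa-miR-192b-5p had a larger log2 fold change. In the same fit 27.6% of all tested miRNAs were called and 18.4% were called higher in AIC. Each of the 10 other settings tried, and each of the 12 fits that left out 1 library, also called ssa-miR-375-3p.

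The share of the library gave the same picture without any model. ssa-miR-375-3p took between 19.5% and 28.4% of the counts in AIC (median 24.3%) and between 0.00613% and 0.0227% in AKC (median 0.0140%). The mean log2 shares differed by 10.86 (exact permutation test, two-sided, p = 0.00216, which is the lowest value this design can reach, adjusted p = 0.00649 over 3 tests). Counting error was small beside this gap. The smallest count, 355 in AKC replicate 4, has an exact Clopper-Pearson 95% interval of 0.00551% to 0.00680%, which covers counting error only because PCR copies of a molecule cannot be told apart. The paper states that the libraries were pooled for sequencing. Whether some AKC counts of ssa-miR-375-3p were reads from AIC libraries was not tested. Its AKC values, and the fold changes and ratios that use them, thus describe counts and not levels in the cells.

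**Figure D1:**
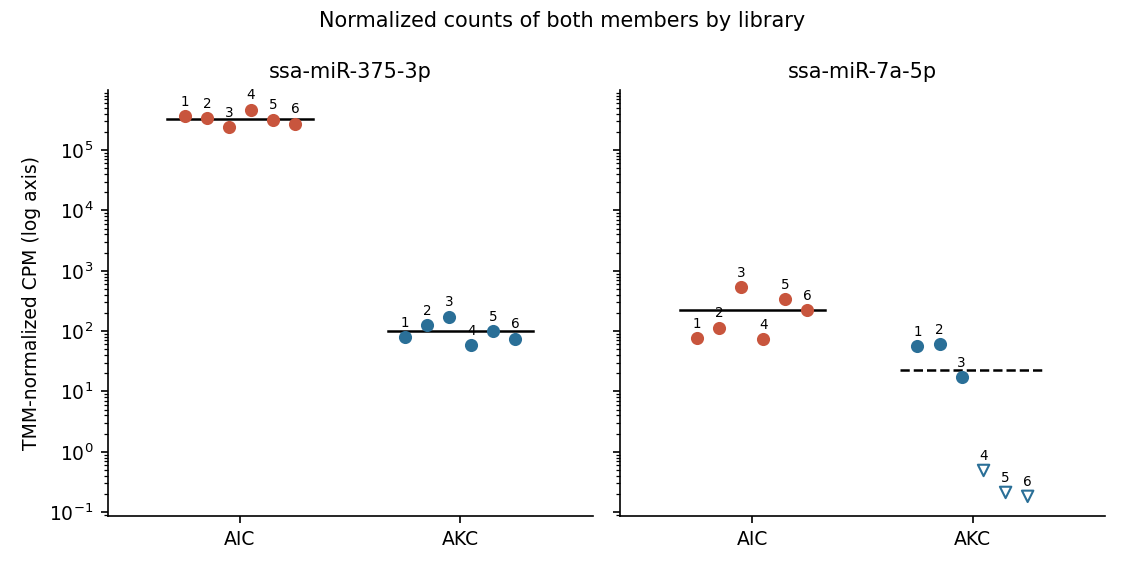
TMM-normalized CPM (log axis) of ssa-miR-375-3p and ssa-miR-7a-5p in each library, numbered by replicate, with bars at the group means. Open triangles mark libraries with at most 3 counts, drawn at the level of 3 counts, and the mean of AKC for ssa-miR-7a-5p (22.2 CPM, dashed) lies below replicates 1 and 2 and above the other 4.

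ssa-miR-375-3p was also among the steadier miRNAs of AIC. Its coefficient of variation over the 6 AIC libraries was 23.8% for CPM, rank 7 from the lowest of 76, where the median miRNA had 66.1%. This rank makes no allowance for abundance. The miRNAs at ranks 1, 3 and 4 of mean CPM in AIC, where ssa-miR-375-3p was at rank 2, had mixed coefficients. They were 30.6% for ssa-let-7a-5p, 51.5% for ssa-let-7b-5p and 8.80% for ssa-miR-92a-3p. Its share varied by 13.5%, and counting alone would give 0.0854%. In AKC the coefficient of variation of CPM was 40.7%, rank 25, against a median of 60.5%.

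The opposite arm, ssa-miR-375-5p, was not detectable in any library. Over the AIC libraries the 3p arm had 8230716 counts and the 5p arm 0, which allows the 5p arm a share of up to 3.64e-05% of the arm counts. In AKC 0 counts against 9722 allow up to 0.0309%. Of the 2 rows of this family with a locus number, ssa-miR-375-2-5p had no count, and ssa-miR-375-3-5p had 157 counts in AIC replicate 3 and 0 in the other 11 libraries. Nearly all miR-375 counts in AIC, and all of them in AKC, thus came from the 3p arm.

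The large share of ssa-miR-375-3p in AIC enters the shares of all other miRNAs there. Without its counts the shares of the others rose by between 24.2% and 39.7% in AIC, and by at most 0.0227% in AKC. With total counts as library size the median log2 fold change over the 76 miRNAs was -0.65, with 9 calls higher and 20 lower in AIC. With ssa-miR-375-3p left out of the library size the median was -0.24, with 10 higher and 14 lower, and 23 of these 24 calls were also called with total counts. With the 5 most abundant miRNAs left out it was 0.10, with 14 higher and 6 lower, and TMM scaling gave 0.11, with 14 higher and 7 lower. Read against these medians, the log2 fold change of ssa-miR-375-3p itself was 11.57 with TMM, 11.40 with total counts and 11.40 without its own counts.

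ssa-miR-7a-5p, the only listed miR-7 row, was a low-abundance miRNA that varied far more from library to library. In AIC its normalized counts in replicates 1 to 6 were 76.1, 114, 532, 73.8, 339 and 223.5 CPM. In AKC they were 56.4, 60.0, 17.0, 0, 0 and 0.0608 CPM. The last 3 AKC libraries held 0, 0 and 1 counts, and AKC replicates 1 and 2 came close to the lowest AIC libraries. In normalized counts the lowest AIC library was 1.23 times the highest AKC library, so the groups did not overlap. The same held in this direction for 17.1% of the tested miRNAs, and in either direction for 27.6%. In shares of the library they did overlap. ssa-miR-7a-5p took between 0.00403% and 0.0502% of an AIC library (median 0.0148%) and between 0 and 0.00826% of an AKC library (median 0.00113%), and 3 of the 6 AIC libraries lay above all AKC libraries.

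The normalized counts of ssa-miR-7a-5p averaged 226 ± 181 (SD, n = 6) CPM in AIC and 22.2 ± 28.6 (SD, n = 6) CPM in AKC. The log2 fold change was 3.35 (standard error 1.61, 95% confidence interval -0.08 to 6.77) and was not past the threshold (unadjusted p = 0.0549, adjusted p = 0.123, edgeR's quasi-likelihood test). This does not show that the groups had equal levels. The call depended on the tool and the filter. DESeq2's Wald test on the same 76 miRNAs called it at 3.49 (standard error 1.38, adjusted p = 0.0277), where it called 43.4% of all. edgeR without a filter on low counts called it at 3.93 (adjusted p = 0.0413), among 22.8% of 180 miRNAs.

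A test of the shares alone gave a smaller p. The mean log2 share, with 0.5 counts added, was higher in AIC by 5.90 (exact permutation test, two-sided, p = 0.0260, adjusted p = 0.0390 over 3 tests). The size of this difference rests on the 3 AKC libraries near 0 and on the count added, so it is not a fold change. Leaving out AIC replicate 3, 5 or 6 took the exact permutation p to 0.0693, 0.0671 or 0.0628, with differences of 5.502, 5.68 and 5.74. With all 12 libraries but the counts of ssa-miR-375-3p left out of their totals, the difference was 6.30 (exact permutation p = 0.0173). Both organs came from 6 fish, and the sources used here do not say whether equal replicate numbers mark the same fish. With equal numbers taken as pairs, the exact permutation p was 0.125 and the call was lost.

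The spread inside AKC was itself wide. AKC replicate 2 had the highest CPM of ssa-miR-7a-5p in the group. It lay at least 122-fold above AKC replicate 4 and at least 283-fold above AKC replicate 5, taking 3 counts per library as the floor. This floor covers counting error only, so these and the following bounds apply to the counts and not to the level in the cells. The 0 counts of AKC replicates 4 and 5 allow shares of up to 5.18e-05% and 3.80e-05%. The lowest AIC library in CPM, replicate 4, was at least 151-fold above AKC replicate 4 and at least 348-fold above AKC replicate 5. In shares of the library, which use no scaling factor, these bounds were lower for the AIC library, at 87.2-fold and 119-fold, and for AKC replicate 2 they were 150.4-fold and 205-fold. Over the AKC libraries the coefficient of variation of CPM was 128.7%, rank 67 from the lowest of 76, and in AIC it was 80.1%, rank 44. Counting alone would give coefficients of 4.57% and 3.24%. Other miRNAs also fell far below their own mean log2 CPM in a single library. Examples are ssa-miR-7132b-5p in AIC replicate 1 (-10.16) and ssa-miR-139-5p in AIC replicate 5 (-6.66). The cause of such low values was not tested.

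The deposited values of ssa-miR-7a-5p carried a mark of how they were made. In 6 of the 12 libraries the value was not whole, and 7 times the value was a whole number within 0.01 in each of them, as in AIC replicate 3, where 3372.57 times 7 gives 23608. The other 11 rows with fractions became whole with divisors between 2 and 6. The sources used here do not state a division by 7 for this miRNA, so its level relative to other miRNAs is uncertain. A divisor that was the same in every library would leave its fold change as it is. ssa-miR-375-3p had whole values in every library.

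**Figure D2:**
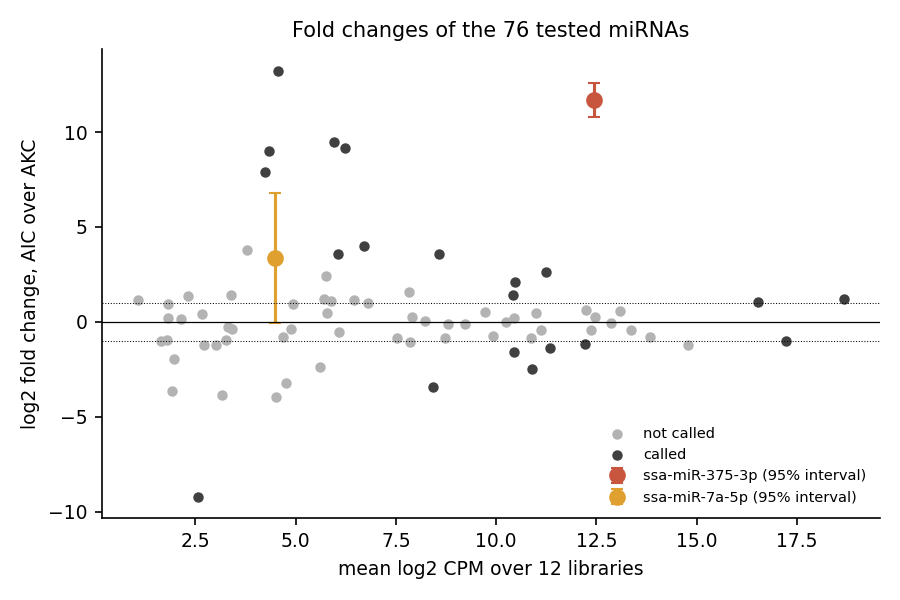
Log2 fold change (AIC over AKC) against the mean log2 CPM over the 12 libraries for the 76 tested miRNAs, with called miRNAs in dark grey and 95% confidence intervals on both members. The interval of ssa-miR-375-3p (10.79 to 12.57) lies far from 0 at high abundance, and that of ssa-miR-7a-5p (-0.08 to 6.77) reaches 0 at low abundance.

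The ratio of the members within a library needs no scaling and asks whether they differed between the organs by the same factor. This ratio takes the AKC counts as they are, with no allowance for reads from AIC libraries. In AIC ssa-miR-7a-5p counts were between 0.0159% and 0.224% of those of ssa-miR-375-3p (median 0.0577%). In AKC replicates 1, 2 and 3 they were 70.6%, 48.0% and 9.90%, and in replicates 4, 5 and 6 they were 0%, 0% and 0.0807%. The first 3 AKC libraries thus lay above all AIC libraries, and the other 3 lay within or below the AIC range. The mean log2 ratio, with 0.5 counts added to each, was 4.97 lower in AIC (a difference of -4.97, exact permutation test, two-sided, p = 0.0433, adjusted p = 0.0433 over 3 tests). This call was lost without AIC replicate 1, 2, 4, 5 or 6 (differences of -4.70, -4.84, -4.62, -5.17 and -5.09) and without AKC replicate 1, 2 or 3 (-3.88, -3.99 and -4.45), with exact permutation p between 0.0584 and 0.0974. It was also lost with equal replicate numbers taken as pairs (exact permutation p = 0.0938). The size of the ratio difference rests on the count added, as AKC replicates 4 and 5 had 0 counts of ssa-miR-7a-5p. With 1 count added to each it was -5.37 (exact permutation p = 0.0173). With the libraries thinned to the smallest total it was -5.66 (exact permutation p = 0.00649).

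The miRNAs whose profile over the 12 libraries was most like that of ssa-miR-375-3p were found by the root mean square difference of log2 CPM, each centred on its own mean. The closest was ssa-miR-192b-5p, of a family known from intestinal epithelium, with a difference of 0.73 on the log2 scale. ssa-miR-196a-5p, encoded in Hox clusters, followed at 1.57, and ssa-miR-192a-5p at 1.62, where the median tested miRNA was at 6.31. In CPM these 3 averaged 1777 ± 813, 986 ± 499 and 3332 ± 1693 (SD, n = 6) in AIC and 0.165 ± 0.148, 1.89 ± 4.50 and 4.57 ± 7.91 (SD, n = 6) in AKC. Their median AKC counts were 2, 0.5 and 4, so the prior count of 2 weighs heavily in the AKC part of their profiles. ssa-miR-375-3p had between 355 and 2289 counts there. The likeness is thus mainly one of the step between AIC and AKC. The mean AKC level of ssa-miR-375-3p was 0.0305% of its mean AIC level, below that of the other 13 miRNAs called higher in AIC except ssa-miR-192b-5p (0.00930%).

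Within the 6 AIC libraries alone, where the difference between organs plays no part, the order was another one. ssa-let-7a-5p, a let-7 miRNA found in most differentiated cells, was closest to ssa-miR-375-3p at 0.23, followed by ssa-miR-200a-3p, an epithelial miRNA, at 0.25 and ssa-let-7c-5p at 0.26 (median of the tested miRNAs 1.11). The profile of ssa-miR-7a-5p was less like any other. Over 12 libraries the closest were ssa-miR-10d-5p (2.22), ssa-miR-10b-5p (2.43) and ssa-miR-100a-5p (3.11), against a median of 4.37, and ssa-miR-375-3p stood at rank 27. Of these, ssa-miR-10d-5p and ssa-miR-10b-5p also had few counts in AKC replicate 4, at 4 and 13. Within AIC the closest were ssa-miR-192a-5p (0.85), ssa-let-7h-5p (0.89) and ssa-miR-462a-5p (0.89), with a median of 1.61. These values describe 12 or 6 libraries and carry no test.

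**Figure D3:**
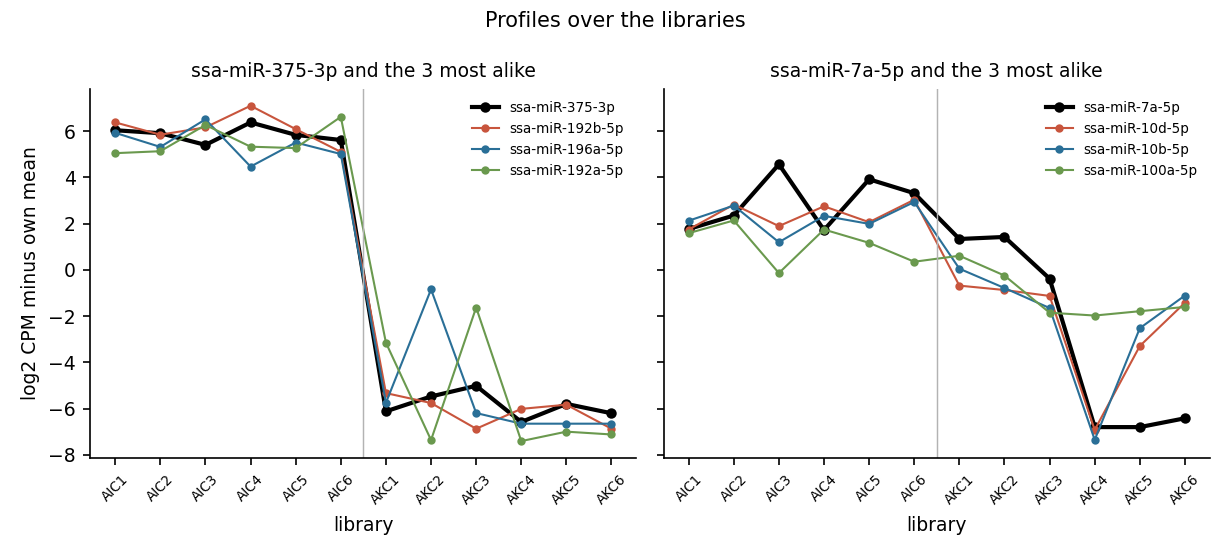
Log2 CPM minus the miRNA's own mean in each library for ssa-miR-375-3p (left) and ssa-miR-7a-5p (right), each with the 3 miRNAs of smallest root mean square difference over the 12 libraries. The left profiles step down between AIC and AKC together, and on the right ssa-miR-7a-5p is low in AKC replicates 4, 5 and 6. There ssa-miR-10d-5p and ssa-miR-10b-5p are lowest in AKC replicate 4 (-6.93 and -7.35) and next lowest in AKC replicate 5 (-3.29 and -2.52).

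Markers of other cell types were read from lists of miRNA families. The intestinal epithelium list (miR-192, miR-194, miR-200, miR-203 and miR-429) had 20 rows, of which 14 had counts and 4 were tested. All 4 were called higher in AIC, as were 18.4% of all tested miRNAs. Their median log2 fold change was 9.32, against 0.11 over all tested miRNAs. Their median AKC counts were between 1.5 and 8, so they passed the filter on low counts only through AIC. A call in this direction was thus close to fixed in advance. The 4 were ssa-miR-192a-5p, ssa-miR-192b-5p, ssa-miR-194a-5p and ssa-miR-200a-3p, and the 2 rows of miR-203 with counts had them in AKC only. Summed over the list, AIC libraries gave it 0.450% to 1.26% of their counts, and AKC libraries 3.45e-05% to 0.0192%. It moved between the groups with ssa-miR-375-3p, and its part in that result was not tested.

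The numbers of miR-375 and epithelium list counts did not keep 1 ratio. In AIC there were 43.3, 40.4, 20.6, 39.1, 39.7 and 21.2 counts of ssa-miR-375-3p per count of the list in replicates 1 to 6. In AKC there were 3.56, 142.9, 1.18, 177.5, 128.5 and 82.6. AKC replicates 1 and 3, with 643 and 1932 list counts, lay below all AIC libraries, and the other 4, with between 2 and 15 list counts, lay above them. In these 4 libraries ssa-miR-375-3p had between 355 and 2143 counts. Ratios to so few list counts are uncertain, and the cause of the differences was not tested.

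Lists of sensory and endocrine, nerve and pancreas miRNAs held few counts. The miR-183 cluster (miR-96, miR-182 and miR-183), known from sensory and endocrine cells, had 5 rows and none passed the filter. It was kept as a list of its own, apart from the endocrine list of miR-375 and miR-7. Its few counts lay almost all in AKC, the other way from ssa-miR-375-3p. ssa-miR-96-5p had 1 count in all AIC libraries together and 632 in 1 AKC library, and ssa-miR-183-5p had 0 in AIC and 523 in AKC. Of 20 rows of nerve-related families (miR-9, miR-129, miR-137, miR-138, miR-153 and miR-219), 19 had no count. The exception was ssa-miR-129-5p, with 219.2 ± 191.97 (SD, n = 6) CPM in AIC and 110 ± 64.8 (SD, n = 6) CPM in AKC and a log2 fold change of 0.99 (adjusted p = 0.442, edgeR's quasi-likelihood test). The 3 rows of miR-216, a family of pancreatic acinar cells, had no count in any library.

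Leukocyte miRNAs were present in both groups. Of 8 rows (miR-142, miR-146, miR-150 and miR-155), 7 had counts, 3 were tested and 1 was called (27.6% of all tested miRNAs were), ssa-miR-155-5p, an miRNA of activated macrophages and lymphocytes, at -3.42 (adjusted p = 0.00882, edgeR's quasi-likelihood test). Summed over the list, AIC libraries gave it 0.164% to 1.599% of their counts, and AKC libraries 1.19% to 3.55%. The groups overlapped, and the part of this list in the members' results was not tested. ssa-miR-142a-5p, of a family found in all blood lineages of mammals, had 241 counts in AIC replicate 3 and 1 in AIC replicate 5. In AKC it had 0, so this defining marker of leukocytes was at 0 in the head kidney libraries. Those libraries did hold ssa-miR-150-5p and ssa-miR-155-5p, so the 0 does not show that leukocytes were absent. Its cause was not tested. The red blood cell list (miR-144) had no count. The muscle and fibroblast list had at most 0.00602% in AIC and 0.00987% in AKC, and the endothelium list (miR-126) at most 0.0190% and 0.0100%.

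**Figure D4:**
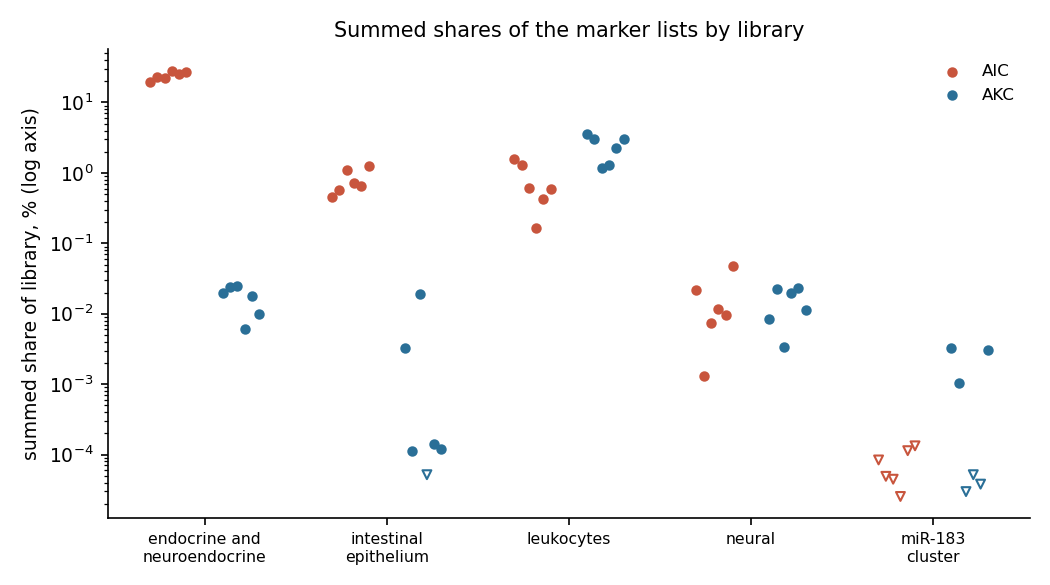
Summed share of the library's counts (percent, log axis) of 5 family lists in each AIC and AKC library, with open triangles at the level of 3 counts for libraries with at most 3. The endocrine list, which is miR-375 and miR-7, takes 19.5% to 28.4% of AIC libraries and 0.00613% to 0.0249% of AKC libraries, and of the 5 lists the epithelium list is the other one that separates in this direction.

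**Figure D5:**
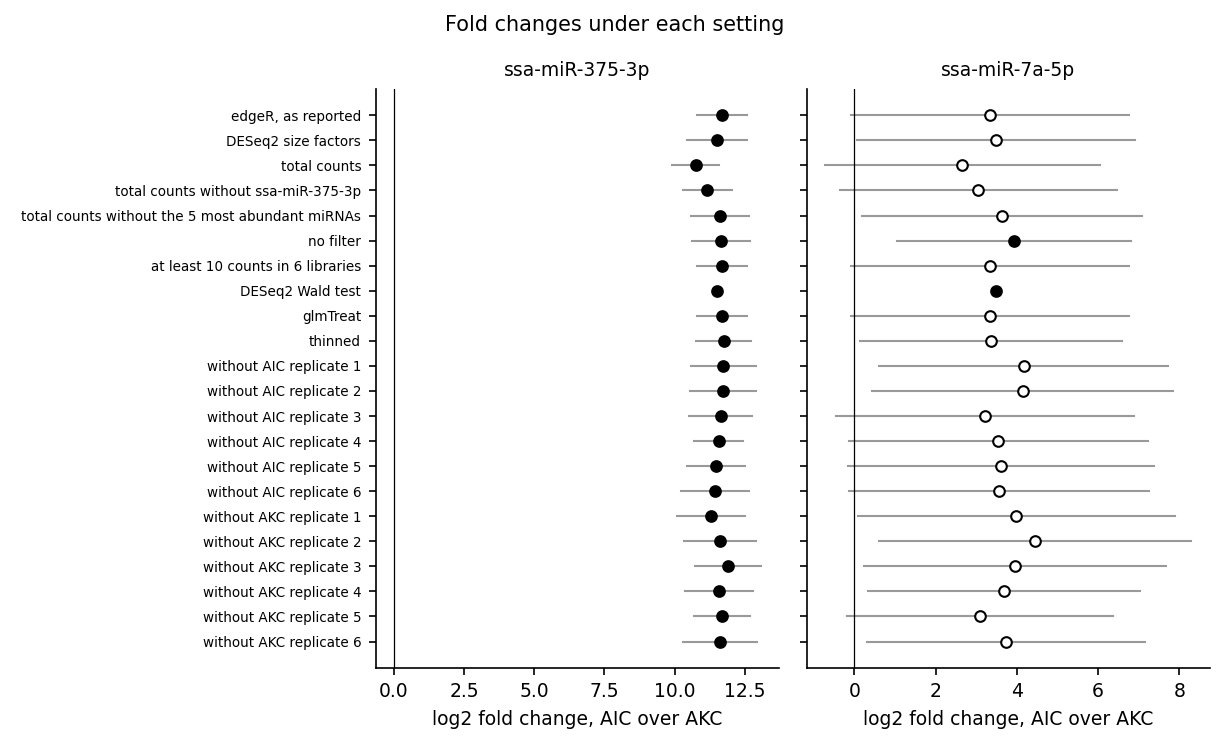
Log2 fold change (AIC over AKC) of both members under each setting other than the replicate block, with 95% confidence intervals where the tool gives them on this scale, filled points for calls and open points for no call. The points of ssa-miR-375-3p are all filled and lie between 10.75 and 11.90, and those of ssa-miR-7a-5p lie between 2.66 and 4.46 with 2 filled.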

How the data were processed

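Small RNA libraries (NEXTflex kit, 25 PCR cycles, 50 ng of RNA from at most 500000 cells) were sequenced from 6 AIC and 6 AKC samples. After adapter trimming and a quality filter, the authors aligned reads of 18 bases or more to the ICSASG_v2 assembly (miRDeep2 mapper) and assigned them to salmon hairpins and mature miRNAs of miRBase (miRDeep2 quantifier). The submitters' processing notes name bcl2fastq 2.20.0.422, cutadapt 1.12, FastQC 0.11.5 and DESeq2 1.20.0. The authors deposited estimated counts, not scaled for library size, for 361 mature miRNAs, of which 181 had no count and 12 had fractions in some libraries. ssa-let-7a-5p had 7 values rounded to 3 significant digits, a rounding of at most 0.189% of a library. A read that matches several near-identical mature sequences may enter each of their counts.

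The counts were rounded, filtered with filterByExpr (minimum count 10), scaled with TMM and tested with edgeR 4.0.16 (R 4.3.3, limma 3.58.1), with group as the only term. Standard errors are the log2 fold change divided by the root of F. Log2 CPM for profiles used a prior count of 2. Shares and ratios were tested by exact permutation over 924 splits. Figures used Matplotlib 3.10.9, and tests Python 3.11.15, NumPy 2.4.6, pandas 2.3.3 and SciPy 1.17.1. The fit and the permutation test were checked on simulated data. Alternatives were DESeq2 1.42.0's size factors and Wald test, other library sizes, other filters, glmTreat, a replicate block, thinning, 1 in place of 0.5 counts added, and leaving out each library. At these depths 3 counts are between 0.105 and 1.59 CPM.

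Named are the members, family rows with a locus number, the 3 closest profiles to each member over all libraries and within AIC, and list members with counts. Families miR-124, miR-141, miR-215, miR-217, miR-223 and miR-451 had no row. The members and lists were chosen with earlier results of these data known. Sequences of the miRNAs are not shown, as the reference tables used here hold none. The study states 6 fish and 6 biological replicates and no pairing of libraries.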

Additional observations from a re-analysis of the deposited data

How the results depend on the processing

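ssa-miR-375-3p kept its direction and its call in all 10 alternatives and in the 12 fits that left out 1 library, which ran from 11.32 to 11.90. Its share difference ran from 10.65 to 11.03 without each library. For ssa-miR-7a-5p, 8 of 10 alternatives left it uncalled, and DESeq2's Wald test (3.49) and edgeR without a filter (3.93) called it. The fits that left out 1 library ran from 3.09 to 4.46 (adjusted p between 0.0775 and 0.184). A filter of at least 10 counts in 6 libraries gave the same values as the reported fit for both members, so it adds nothing to these counts. glmTreat is a stricter test of the same fit and could not add a call of ssa-miR-7a-5p. Of all miRNAs, 21 were called, against 41 without a filter, 33 by DESeq2 and 13 by glmTreat, and between 18 and 22 without 1 library. The share of calls that were higher in AIC was 66.7% with TMM, 54.5% with DESeq2's size factors and 31.0% with total counts. The share difference of ssa-miR-7a-5p ran from 4.88 to 6.95 and the ratio from -6.08 to -3.88 without each library. The cause of these changes was not tested.

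The replicate numbers were not shown to pair the libraries, as the correlations of deviations within a number ran from -0.119 to 0.0735 (mean -0.000616). With the replicate block ssa-miR-375-3p was called at 11.74, ssa-miR-7a-5p was at 7.08 (adjusted p = 0.1001, edgeR) and 22 miRNAs were called. With sign flips over the replicate block, the differences of 5.90 for the share of ssa-miR-7a-5p and -4.97 for the ratio were no longer past the threshold (exact permutation p = 0.125 and 0.0938). The 3 AKC libraries with at most 1 count of ssa-miR-7a-5p held between 5791813 and 12685885 counts in all.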

Other observations

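Within groups, 10 relations between log2 shares were computed, 5 in AIC and 5 in AKC, and none passed Benjamini-Hochberg adjustment. ssa-miR-375-3p and ssa-miR-7a-5p had Pearson's r = 0.14 and Spearman's rho = 0.03 in AIC (exact permutation p = 0.782 and 1, adjusted 0.822 and 1, n = 6). In AKC they had r = 0.46 and rho = 0.09 (exact permutation p = 0.374 and 0.919, adjusted 0.623 and 1, n = 6). Without the 2 libraries farthest from the median of ssa-miR-375-3p, r was 0.04 in AIC and 0.02 in AKC. The smallest p was that of ssa-miR-7a-5p against the total count in AKC, with rho = 0.89 and r = 0.71 (exact permutation p = 0.0333 and 0.113, adjusted 0.333 and 0.623, n = 6), and r was 0.46 without the 2 libraries farthest from the median total count. The epithelium list and ssa-miR-375-3p had r = 0.50 in AIC and 0.60 in AKC (exact permutation p = 0.319 and 0.224, adjusted 0.623 for both, n = 6), with rho of 0.54 and 0.71. Without the 2 libraries farthest from the median of the list, which leaves 4, r was 0.998 and 0.876. With ssa-miR-7a-5p the list had r = 0.70 in AIC and 0.63 in AKC (exact permutation p = 0.140 and 0.304, adjusted 0.623 for both, n = 6), with rho of 0.60 and 0.31. Without the same 2 libraries these r were 0.33 and 0.21.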
